A study of Mus musculus with 19 samples.

Results

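The genes of polyamine metabolism were followed across crypt RNA-seq libraries of fed and fasted mice with and without neurotensin. The 10 genes were chosen by symbol and were matched to the gene identifiers of the deposited tables, which list 55487 genes. All 10 passed edgeR's filter on low counts and were among the 17875 genes tested. They were the synthesis enzymes *Odc1*, *Amd1*, *Srm*, and *Sms*, the regulators of ornithine decarboxylase *Oaz1*, *Oaz2*, and *Azin1*, and the acetylating and oxidizing enzymes *Sat1*, *Paox*, and *Smox*.

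The study asked how neurotensin (NT), a gut hormone released on feeding, acts on the intestinal epithelium when nutrients are withdrawn. C57BL/6 mice of both sexes, either NT+/+ or NT-/-, were fed chow ad libitum or fasted for 48 h with water only, and their small intestinal crypts, the epithelial pits that hold stem and progenitor cells, were released with EDTA for total RNA. The fed groups held 5 NT+/+ and 4 NT-/- animals, the fasted groups 5 of each genotype, and every animal gave 1 library. Per the paper's methods, the crypts came from the proximal part of the small intestine and not from its whole length. The fed controls were described as littermates matched for age and sex. The paper describes the fed and fasted animals as Lgr5-EGFP mice of either NT genotype. Its methods list lines with and without the Lgr5-EGFP-IRES-CreERT2 reporter. The labels of the 19 mice name NT genotype and strain and no reporter or Cre. They do not settle whether these mice carried the reporter. Replicate 5 of the fasted NT+/+ group carried a genotype label of NT-/- against a title of NT+/+ and was grouped by its title.

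Libraries held 9059457 to 35068711 counts on genes (median, 18541819), and the 2 shallowest were fasted NT-/- mice (replicates 2 and 4). *Nts*, which encodes NT, was 4.98 to 8.59 CPM in the 10 NT+/+ mice and 0.144 to 0.793 CPM in the 9 NT-/- mice, and it was 5.43 CPM in the mouse whose labels disagree. CPM are counts of a gene relative to the library total, as scaled by the TMM method, and they serve to compare 1 gene between mice. The epithelial markers *Epcam*, *Krt8*, *Cdh1*, and *Vil1* summed to 4530 to 6020 CPM over the mice, and the mesenchymal list to at most 6.02 CPM.

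Polyamines (putrescine, spermidine, and spermine) are small cations that bind nucleic acids and are needed for cell division, and the rapidly renewing gut epithelium is a tissue in which they have long been studied. Ornithine decarboxylase, encoded by *Odc1*, makes putrescine from ornithine and is the rate-limiting step. *Amd1* encodes the decarboxylase of S-adenosylmethionine that supplies the aminopropyl group, and the synthases of *Srm* and *Sms* use it to make spermidine and then spermine. Antizymes (*Oaz1* and *Oaz2*) bind ornithine decarboxylase, send it to the proteasome, and curb polyamine uptake. The antizyme inhibitor of *Azin1* resembles the decarboxylase without its activity and takes up antizyme. In the other direction, *Sat1* encodes the acetyltransferase that marks spermidine and spermine for export or oxidation, *Paox* the oxidase of the acetylated forms, and *Smox* the oxidase that turns spermine back to spermidine. Much of this control acts on translation and protein turnover, which RNA counts do not measure.

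The bases before the RefSeq start site are shown for *Odc1*, the gene of the rate-limiting step, and for *Oaz2* and *Smox*. Between fed and fasted mice, *Oaz2* was called in both genotypes and *Smox* in NT-/- mice only. The stretches of *Oaz2* and *Smox* lie inside the GENCODE spans of these genes given below, past the annotated gene starts. They come from RefSeq promoters of GRCm38.p6, which held an entry for 8 of the 10 genes (not *Srm* and *Azin1*), and stretches inside an exon of the GENCODE annotation were left out. Capitals mark the GC box GGGCGG on either strand, a letter pattern of many promoters that lack a TATA box.
*Odc1*, chr12:17544623-17544793, plus strand: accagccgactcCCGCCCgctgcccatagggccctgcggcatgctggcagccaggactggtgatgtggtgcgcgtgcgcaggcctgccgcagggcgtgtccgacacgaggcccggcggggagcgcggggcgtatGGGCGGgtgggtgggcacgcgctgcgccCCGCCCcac
*Oaz2*, chr9:65676298-65676547, plus strand: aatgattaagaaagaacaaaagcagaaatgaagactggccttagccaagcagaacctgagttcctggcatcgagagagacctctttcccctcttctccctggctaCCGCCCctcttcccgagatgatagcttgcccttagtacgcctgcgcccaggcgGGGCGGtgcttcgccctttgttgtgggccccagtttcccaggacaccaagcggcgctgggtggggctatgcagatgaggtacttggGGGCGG
*Smox*, chr2:131491654-131491763, plus strand: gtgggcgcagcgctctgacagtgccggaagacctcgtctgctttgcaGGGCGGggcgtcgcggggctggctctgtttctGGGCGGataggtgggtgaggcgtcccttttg

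The stretches held 3 GC boxes at *Odc1*, 3 at *Oaz2*, and 2 at *Smox*. Over the full window of 250 bases before the start, 8 of the 10 promoters of these genes had a GC box. They belong to 7 of the 8 genes, and *Oaz1* had none. Of all 32851 promoters of the same length, 32.7% held one. The TATA box TATAAA was in 0 of the 10 promoters of these genes and in 12.4% of all promoters. The E-box CACGTG, the letters read by Myc and Max, was in 1 of them, the second promoter of *Sms*, and in 6.02% of all promoters. None of the 3 patterns overlaps another in its letters, and a match or its absence describes only these letters.

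Levels of different genes were compared only per length, as the deposited TPM, in which counts are divided by transcript length and scaled to a common total. In fed NT+/+ mice *Oaz1* was highest, at 242 ± 10.4 TPM (SD, n = 5). *Azin1* followed at 108 ± 16.0 TPM and *Odc1* at 82.8 ± 11.2 TPM (SD, n = 5 each), and the ranges of these 2 genes over the mice overlapped. *Sat1* was at 55.6 ± 6.61 TPM and *Amd1* at 31.5 ± 4.61 TPM (SD, n = 5 each), each clear of its neighbours in the order. *Srm* (14.2 ± 2.54 TPM), *Oaz2* (11.8 ± 1.2 TPM), and *Sms* (11.8 ± 0.924 TPM) overlapped one another (SD, n = 5 each). The oxidases were lowest, *Smox* at 8.03 ± 1.37 TPM and *Paox* at 6.02 ± 1.24 TPM (SD, n = 5 each), and they too overlapped. The order of the group means was the same in fed NT-/- mice. In fasted mice of both genotypes *Oaz2* stood above *Srm*. Near-identical pseudogenes held counts of 50.2% of that of *Paox* and 32.2% of that of *Sms*. The places of these genes in the order are therefore uncertain.

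**Figure D1:**
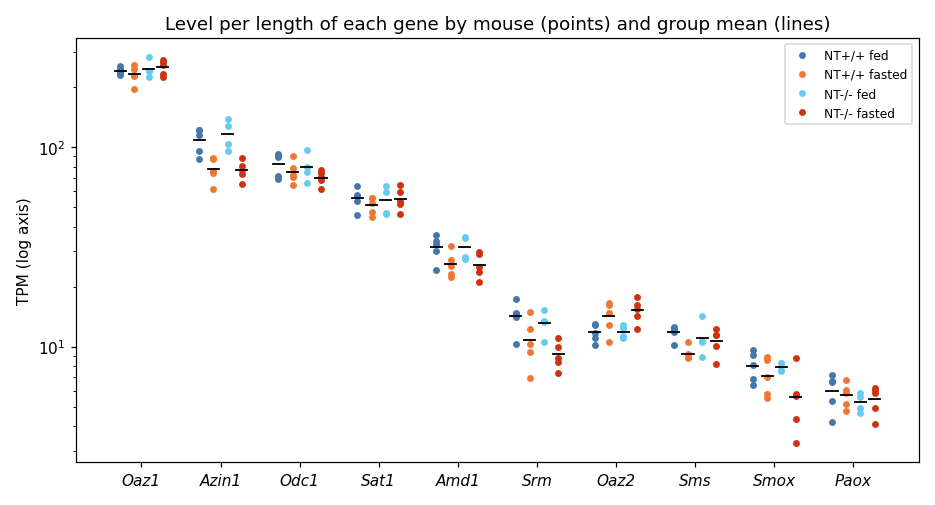
TPM of each gene on a log axis, with 1 point per mouse, 4 groups side by side, and a line at each group mean. *Oaz1* lies above the other genes in every group, and the oxidase genes *Smox* and *Paox* lie lowest in the group means. Reads shared with near-identical pseudogenes leave the places of *Paox* and *Sms* uncertain.

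The first question was what the fast did to these genes in each genotype. *Azin1* fell and *Oaz2* rose in both genotypes, and *Smox* fell in NT-/- mice, whereas no synthesis enzyme was called in the fit of all 19 mice without a replicate block. *Srm* was called lower in NT-/- mice by both fits with a block. *Amd1* was called lower in NT-/- mice with the title number as a block, with only the compared groups in the fit, and without fed replicate 2. In NT+/+ mice 1 of the 10 genes was called higher and 1 lower after fasting (edgeR's quasi-likelihood test, adjusted p under 0.05 by Benjamini-Hochberg over all 17875 genes), where 11.2% of all genes were called higher and 10.4% lower. In NT-/- mice 1 was called higher and 2 lower, where 12.5% of all genes were called higher and 12.6% lower. These shares over 10 genes are near the background, so the genes are described one by one. At an unadjusted p under 0.05 there were 3 of the 10 genes in NT+/+ mice and 5 in NT-/- mice, where 34.1% and 36.5% of all genes were. DESeq2's Wald test called 2 and 3 of the 10, where it called 23.3% and 26.4% of all genes. The median log2 fold change over the 10 genes was −0.115 in NT+/+ and −0.0861 in NT-/- mice, against −0.00886 and −0.0220 over all genes tested.

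**Figure D2:**
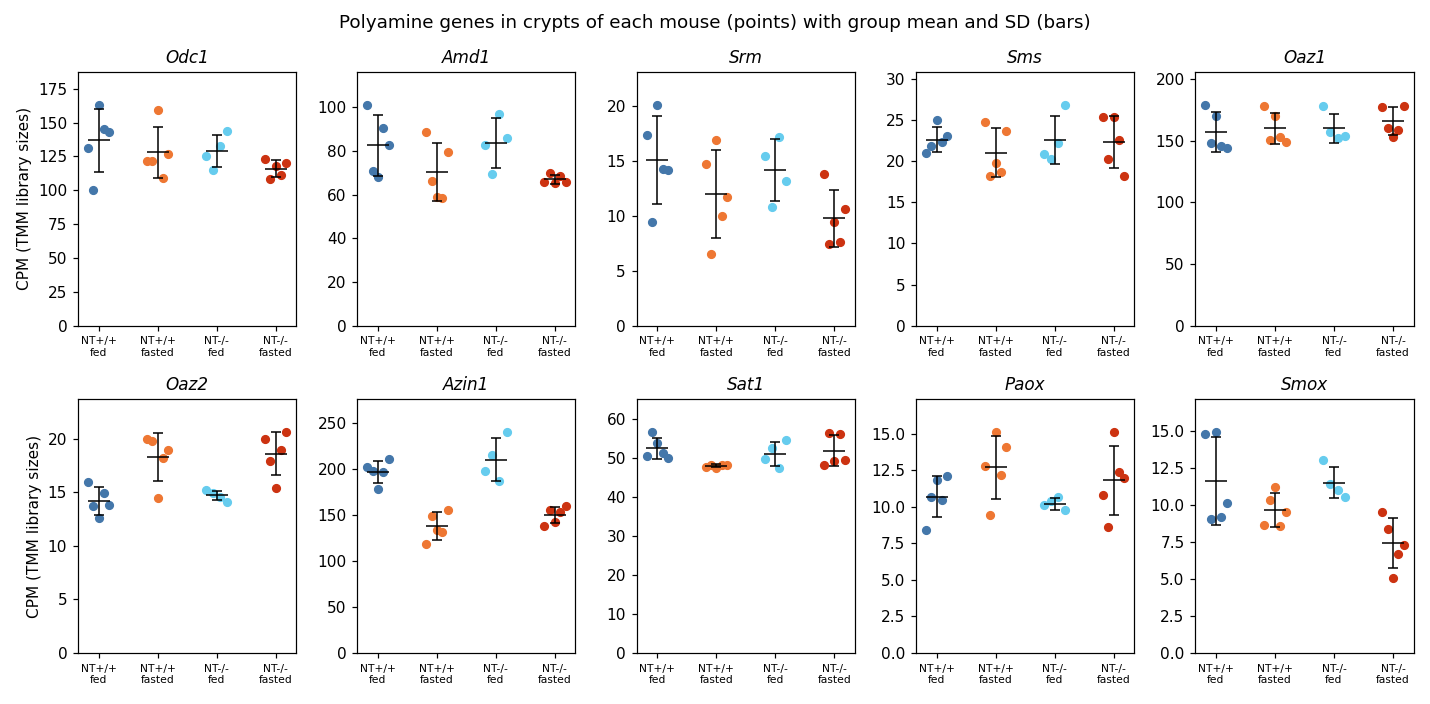
CPM of each gene in each mouse (points), with group mean and SD (bars), on axes that start at 0. *Azin1* is lower and *Oaz2* higher in the fasted groups of both genotypes. For *Smox* the group mean is lowest in fasted NT-/- mice, whose points overlap those of NT+/+ mice.

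Among the regulators of ornithine decarboxylase, *Azin1* (ENSMUSG00000037458, GRCm38 chr15:38487427-38519266, minus strand) changed most. In fed NT+/+ mice it was 202, 198, 178, 197, and 211 CPM in replicates 1 to 5. In fasted NT+/+ mice it was 119, 149, 134, 132, and 156 CPM. Every fasted mouse lay below every fed mouse. On the log2 scale fasted mice stood at −0.52 against fed mice (adjusted p = 0.000169 by the quasi-likelihood test of edgeR, standard error 0.08), a change of −30.1%.

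In NT-/- mice *Azin1* was 198, 215, 187, and 240 CPM fed and 138, 155, 142, 153, and 160 CPM fasted. The groups again did not overlap. On the log2 scale the change was −0.49 (adjusted p = 0.000377 by the same test, standard error 0.09), a change of −28.8%. The call held under each alternative and with each mouse left out, with adjusted p of at most 0.0014 in NT+/+ and 0.00214 in NT-/- mice over the alternatives, and of at most 0.000814 and 0.00203 with a mouse left out. *Azin1* was lower after fasting in 5 of 5 NT+/+ and 4 of 4 NT-/- pairs of mice that share a number in the deposited file names.

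*Oaz2* (ENSMUSG00000040652, chr9:65668001-65690300, plus strand), the less abundant of both antizymes per length, moved the other way. It was 16.0, 13.7, 12.6, 14.9, and 13.8 CPM in fed NT+/+ mice and 20.0, 19.8, 14.5, 18.2, and 18.9 CPM in fasted NT+/+ mice. Only fasted replicate 3, at 14.5 CPM, fell within the fed range. Fasted mice stood 0.36 higher on the log2 scale (adjusted p = 0.0130 by the quasi-likelihood test of edgeR, standard error 0.10), or 1.28-fold.

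In NT-/- mice *Oaz2* was 15.2, 14.9, 14.6, and 14.1 CPM fed and 20.0, 17.9, 15.4, 18.9, and 20.6 CPM fasted. The groups did not overlap. They differed by 0.34 on the log2 scale (adjusted p = 0.0239 by the same test, standard error 0.11). This call was lost, at adjusted p of 0.0509 to 0.0599, without any 1 of fed replicate 3, fed replicate 4, fasted replicate 1, or fasted replicate 5, at 0.0558 without the 2 shallowest libraries, and at 0.0845 with no filter on low counts. The log2 fold change stayed between 0.30 and 0.40 in these fits, and *Oaz2* was higher after fasting in 5 of 5 NT+/+ and 4 of 4 NT-/- pairs.

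*Oaz1* (ENSMUSG00000035242, chr10:80826656-80829290, plus strand), the main antizyme, was 157 ± 16.1 CPM fed and 160 ± 12.9 CPM fasted in NT+/+ mice (SD, n = 5 each). The NT-/- mice had 160 ± 12.0 CPM (SD, n = 4) fed and 166 ± 11.5 CPM (SD, n = 5) fasted. The 95% interval of the log2 fold change was −0.14 to 0.19 in NT+/+ and −0.13 to 0.22 in NT-/- mice. The groups overlapped in both genotypes.

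The synthesis enzymes had log2 fold changes below 0 in both genotypes (that of *Sms* in NT-/- mice was −0.01 and turned to 0.06 with sex as a covariate), and 0 of the 4 were called by edgeR's quasi-likelihood test or by DESeq2 in either. At an unadjusted p under 0.05 there were 0 of 4 in NT+/+ and 2 of 4 in NT-/- mice (*Amd1* and *Srm*), against the 34.1% and 36.5% of all genes. *Odc1* (ENSMUSG00000011179, chr12:17544794-17551505, plus strand) was 131, 100, 163, 145, and 143 CPM in fed and 122, 122, 159, 109, and 127 CPM in fasted NT+/+ mice. It was 125, 115, 133, and 144 CPM in fed and 123, 108, 118, 111, and 120 CPM in fasted NT-/- mice. The groups overlapped in both genotypes. Fasted against fed mice stood at −0.10 on the log2 scale (adjusted p = 0.579 by the quasi-likelihood test of edgeR, standard error 0.11) in NT+/+ and −0.16 (0.12, 0.355) in NT-/- mice. The 95% intervals ran from −0.33 to 0.14 and from −0.41 to 0.09.

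*Srm* (ENSMUSG00000006442, chr4:148591503-148594993, plus strand), the spermidine synthase, varied widely between mice. It was 17.4, 9.47, 20.1, 14.3, and 14.2 CPM in fed and 14.7, 6.55, 16.9, 9.99, and 11.7 CPM in fasted NT+/+ mice. It was 15.5, 10.8, 17.2, and 13.2 CPM in fed and 13.8, 7.49, 9.48, 7.60, and 10.6 CPM in fasted NT-/- mice. Replicate 2 was the lowest mouse of each of the 4 groups. The groups overlapped, and the log2 fold change was −0.33 (standard error 0.23, adjusted p = 0.345) in NT+/+ and −0.52 (0.25, 0.132) in NT-/- mice by edgeR's quasi-likelihood test. Within pairs of mice that share a number in the file names, *Srm* was lower after fasting in 5 of 5 NT+/+ pairs, by −0.53 to −0.24 on the log2 CPM scale, and in 4 of 4 NT-/- pairs, by −1.18 to −0.17. With that number as a replicate block the log2 fold change was −0.35 (adjusted p = 0.0645) in NT+/+ and −0.63 (adjusted p = 0.00445) in NT-/- mice. With the number of the titles as the block it was −0.35 (adjusted p = 0.0435) and −0.55 (adjusted p = 0.00604), so that *Srm* was called lower in NT-/- mice by both blocked fits and in NT+/+ mice by 1 of them.

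*Amd1* (ENSMUSG00000075232, chr10:40287458-40302186, minus strand) was 101, 70.6, 68.1, 90.4, and 82.5 CPM in fed and 88.8, 66.3, 58.9, 58.3, and 79.6 CPM in fasted NT+/+ mice. It was 82.5, 69.5, 96.8, and 86.1 CPM in fed and 65.7, 70.0, 65.2, 68.5, and 65.7 CPM in fasted NT-/- mice. Only fasted replicate 2 of the NT-/- mice lay inside the fed range, just above its lowest value. The log2 fold change was −0.23 (standard error 0.12, adjusted p = 0.191) in NT+/+ and −0.32 (0.13, 0.0737) in NT-/- mice by edgeR's quasi-likelihood test. The adjusted p in NT-/- mice was 0.0476 with the number of the titles as a block, 0.0214 with only the compared groups in the fit, and 0.0423 without fed replicate 2, and it was 0.0794 with the file-name number as a block.

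*Sms* (ENSMUSG00000071708, chrX:157443855-157492287, minus strand), the spermine synthase, was 22.6 ± 1.52 CPM fed and 21.0 ± 2.98 CPM fasted in NT+/+ mice (SD, n = 5 each). The NT-/- mice had 22.6 ± 2.92 CPM (SD, n = 4) fed and 22.3 ± 3.14 CPM (SD, n = 5) fasted. The 95% interval of the log2 fold change was −0.34 to 0.13 and −0.26 to 0.24. A processed pseudogene, *Sms-ps*, is 100% identical to *Sms* over 1101 bases and held a count of 32.2% of that of *Sms*, so the division of reads between them is uncertain.

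**Figure D3:**
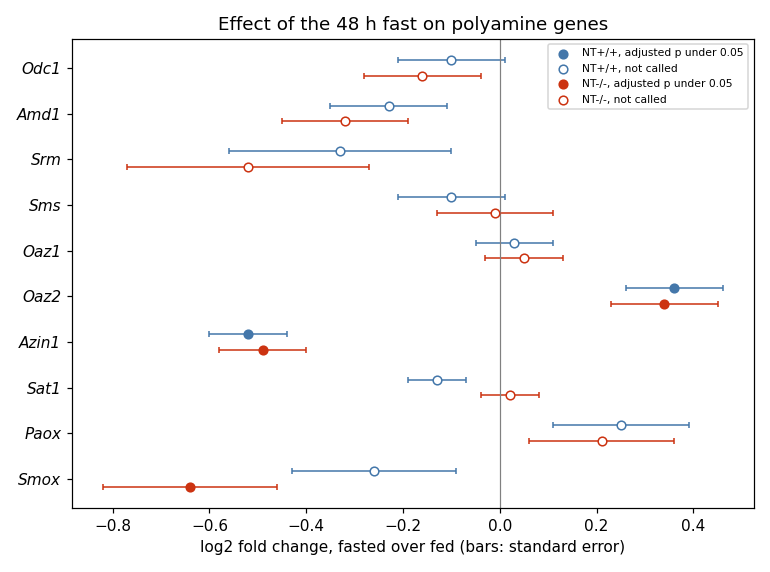
Log2 fold change of each gene, fasted over fed, in NT+/+ and NT-/- mice, with bars of 1 standard error. Filled points passed an adjusted p under 0.05, which was so for *Oaz2* and *Azin1* in both genotypes and for *Smox* in NT-/- mice.

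Of the acetylating and oxidizing enzymes, *Smox* (ENSMUSG00000027333, chr2:131491496-131525922, plus strand), the spermine oxidase, was called lower after fasting in NT-/- mice. It was 13, 11.4, 11, and 10.5 CPM fed and 9.50, 8.40, 5.09, 6.71, and 7.29 CPM fasted. The groups did not overlap. Fasted mice stood at −0.64 on the log2 scale against fed mice (adjusted p = 0.0128 by the quasi-likelihood test of edgeR, standard error 0.18), a change of −35.7%. The call held under each alternative, with adjusted p of at most 0.0362, and with each mouse left out, with adjusted p of at most 0.0446.

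In NT+/+ mice *Smox* was 14.8, 9.07, 14.9, 9.19, and 10.1 CPM fed and 8.63, 10.3, 11.2, 8.57, and 9.52 CPM fasted. Fed replicates 1 and 3 were high, and the groups overlapped. Their log2 difference was −0.26 (adjusted p = 0.286 by the same test, standard error 0.17), with a 95% interval of −0.62 to 0.09. Whether the fast acted differently on *Smox* in each genotype was tested by the interaction term, which was −0.37 (adjusted p = 1, standard error 0.25), so the fall in NT-/- mice was not shown to differ from that in NT+/+ mice.

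*Sat1* (ENSMUSG00000025283, chrX:155213132-155216449, minus strand), whose product is the main entry to polyamine breakdown, kept within narrow limits. It was 50.3, 56.5, 53.7, 51.3, and 50.0 CPM in fed and 47.6, 48.2, 47.4, 48.1, and 48.2 CPM in fasted NT+/+ mice. These groups did not overlap, with a log2 fold change of −0.13 (adjusted p = 0.139 by the quasi-likelihood test of edgeR, standard error 0.06). Among NT-/- mice it was 49.6, 52.4, 47.3, and 54.4 CPM fed and 48.2, 56.2, 49.1, 56.1, and 49.5 CPM fasted, with a log2 fold change of 0.02 (0.06, 0.848). The 2 shallowest libraries, fasted replicates 2 and 4, were the highest fasted NT-/- mice, and without them the log2 fold change was −0.06.

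*Paox* (ENSMUSG00000025464, chr7:140115799-140137224, plus strand), the oxidase of acetylated polyamines, was 10.7 ± 1.43 CPM fed and 12.7 ± 2.16 CPM fasted in NT+/+ mice (SD, n = 5 each). The NT-/- mice had 10.2 ± 0.407 CPM (SD, n = 4) fed and 11.8 ± 2.36 CPM (SD, n = 5) fasted. The log2 fold change was 0.25 (standard error 0.14, adjusted p = 0.215) and 0.21 (0.15, 0.337) by edgeR's quasi-likelihood test. The processed pseudogene *Gm19680* is 99.9% identical to *Paox* over 1358 bases and held a count of 50.2% of that of *Paox*. With the counts of such copies added, the log2 fold change of *Paox* was 0.04 in NT+/+ and −0.04 in NT-/- mice. *Paox* also shares 142 exon bases with *Echs1* on the opposite strand, and the strand setting of the counting is not given in the sources used here.

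Counts of groups that did not overlap in CPM stood near the share over all genes. In NT+/+ mice 2 of the 10 genes did not overlap between fed and fasted mice (*Azin1* and *Sat1*), where 14.6% of all genes did not. In NT-/- mice 3 did not (*Oaz2*, *Azin1*, and *Smox*), where 21.3% of all genes did not.

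**Figure D4:**
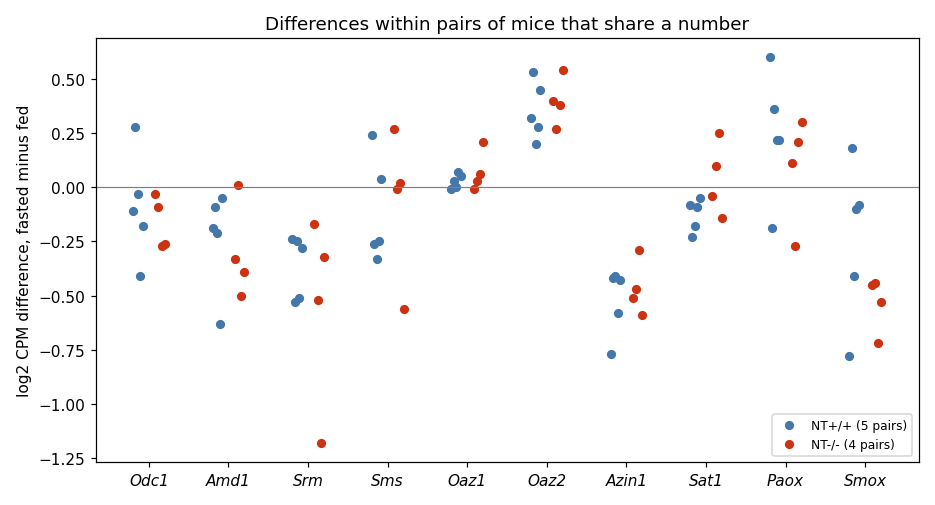
Fasted minus fed log2 CPM of each gene within pairs of mice that share a number in the deposited file names, 5 pairs of NT+/+ and 4 pairs of NT-/- mice, 1 point per pair. All points of *Azin1* and *Srm* lie below 0 and all points of *Oaz2* above 0, and the same holds below 0 for the NT+/+ points of *Amd1* and *Sat1* and the NT-/- points of *Odc1* and *Smox*.

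The second question was whether loss of NT altered these genes within a diet. None of the 10 genes was called between NT-/- and NT+/+ mice in either diet by edgeR's quasi-likelihood test, which called 0.00559% of all genes in each diet (*Nts* alone). DESeq2 called none of the 10 in either diet, where it called 0.0168% of all genes in fed and 0.548% in fasted mice. At an unadjusted p under 0.05 by edgeR there were 0 of the 10 genes in fed mice and 1 in fasted mice, where 1.67% and 9.14% of all genes were. In fed mice the log2 fold changes ran from −0.08 to 0.09, and the 95% intervals lay within −0.60 and 0.43. In fasted mice they ran from −0.38 to 0.12, and the intervals lay within −0.78 and 0.32.

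The gene with an unadjusted p under 0.05 was *Smox*, at 9.65 ± 1.13 CPM in fasted NT+/+ and 7.40 ± 1.68 CPM in fasted NT-/- mice (SD, n = 5 each). The groups overlapped. The NT-/- mice stood at −0.38 on the log2 scale against NT+/+ mice (adjusted p = 0.499 by the quasi-likelihood test of edgeR, standard error 0.17), and the adjusted p ran from 0.270 to 0.831 over the alternatives. In fed mice the 2 genotypes stood at 11.6 ± 2.99 CPM (SD, n = 5) and 11.5 ± 1.04 CPM (SD, n = 4).

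The interaction of diet and genotype was called for 0 of the 10 genes and for 0% of all genes tested, by edgeR and by DESeq2. At an unadjusted p under 0.05 there were 0 of the 10, where 2.71% of all genes were. The differences ran from −0.37 for *Smox* to 0.15 for *Sat1* (adjusted p = 1 for each). For *Azin1* the difference was 0.03 and for *Oaz2* −0.02. The 95% intervals over the 10 genes lay within −0.92 and 0.53.

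Crypts of fasted mice also differed in markers of cell state, and the part of these in the results above was not tested. The summed CPM of 8 proliferation markers was 1690 to 1920 in fed and 1120 to 1490 in fasted NT+/+ mice, and 1620 to 1770 and 993 to 1260 in NT-/- mice, with 4 and 7 of the 8 called lower. The sum of 9 villus enterocyte markers was 3470 to 7520 and 7330 to 15600 in NT+/+ mice, and 5460 to 8240 and 13500 to 18300 in NT-/- mice, with 7 and 9 of the 9 called higher. No marker of either list was at 0 in all mice of a group. In bulk RNA, fewer cells of a type and less RNA per cell cannot be told apart. The sum of 4 stem cell markers was 1550 to 2570 and 837 to 1800 in NT+/+ mice, and 1360 to 2220 and 868 to 1180 in NT-/- mice. Most of that sum is *Olfm4*, which was called lower in both genotypes, at −0.63 and −0.92 on the log2 scale. *Smoc2* was called lower in NT-/- mice, at −0.49, whereas *Lgr5* (0.29 in NT+/+ and −0.02 in NT-/- mice) and *Ascl2* (0.63 and 0.12) were not called. The sums of the Paneth, goblet, enteroendocrine, tuft, leukocyte, mesenchymal, endothelial, and epithelial markers overlapped between fed and fasted mice of both genotypes, but single markers were called. Of the 6 goblet cell markers, *Agr2* (−1 and −1.59) and *Clca1* (−1.51 and −2.22) were called lower and *Zg16* (0.93 and 1.25) higher in both genotypes, and *Muc2* (−0.83) lower in NT-/- mice. Of the other lists, *Itgam* of leukocytes (−0.83 and −0.54) was called lower and *Chga* of enteroendocrine cells (0.39 and 0.42) higher in both genotypes, and *Gcg* (−0.49) and the Paneth cell gene *Defa17* (−0.72) were called lower in NT-/- mice.

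Sex was labelled for 18 of the 19 mice. With 3 female mice per group, the mean log2 difference of *Azin1* between fasted and fed mice was −0.59 in NT+/+ and −0.43 in NT-/- females. That of *Oaz2* was 0.38 and 0.35 in females, and that of *Smox* was −0.23 and −0.54. In males, 2 NT+/+ mice per diet gave −0.42 for *Azin1*, 0.33 for *Oaz2*, and −0.25 for *Smox*. Only 1 labelled NT-/- male stood in each diet, and their differences, with no replicate, were −0.76, 0.13, and −1.05 for these genes.

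The other genes of the pathway were a list of 35, of which 32 were tested. After fasting 9 were called higher and 1 lower in NT+/+ mice, and 9 higher and 3 lower in NT-/- mice, with a median log2 fold change of 0.188 and 0.169. The genes called higher include *Azin2* in NT+/+ and *Sat2* in NT-/- mice, which are at few counts and are given below as a description. Over all genes 11.2% were called higher and 10.4% lower in NT+/+ mice, and 12.5% and 12.6% in NT-/- mice. The list was chosen with earlier results of these data known, so its counts beside these shares are a description only. Among the 4 precursor genes, *Arg2*, the mitochondrial arginase that makes ornithine, rose from 133 ± 20.4 to 227 ± 37.3 CPM in NT+/+ mice (SD, n = 5 each). *Arg2* had a log2 fold change of 0.77 (adjusted p = 0.000128) in NT+/+ and 0.75 (adjusted p = 0.000247) in NT-/- mice by edgeR's quasi-likelihood test. *Agmat*, which encodes agmatinase, another source of putrescine, had a log2 fold change of 1.02 (adjusted p = 1.33e-06) and 0.87 (adjusted p = 1.47e-05). *Oat*, which turns ornithine to glutamate semialdehyde, was not called, at −0.12 and −0.26.

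Spermidine and spermine synthesis leave methylthioadenosine, which *Mtap* returns to methionine. *Mtap* fell from 14.2 ± 1.22 to 9.84 ± 2.22 CPM in NT+/+ mice (SD, n = 5 each) and from 13.8 ± 1.72 CPM (SD, n = 4) to 7.69 ± 1.36 CPM (SD, n = 5) in NT-/- mice. Its log2 fold change was −0.53 (adjusted p = 0.0138) and −0.83 (adjusted p = 0.000717) by edgeR's quasi-likelihood test. Of the other 6 genes of methionine and its salvage, *Mri1* was called higher in NT+/+ mice, at 0.28 (adjusted p = 0.0246), and *Mat2a*, a subunit of the enzyme that makes S-adenosylmethionine, was called lower in NT-/- mice, at −0.35 (adjusted p = 0.00961). The call of *Mri1* was lost without fed replicate 2, fed replicate 5, or fasted replicate 4, at adjusted p of up to 0.0763, and with no filter on low counts, at 0.0926. That of *Mat2a* was lost with the mouse of disagreeing labels taken as NT-/-, at adjusted p = 0.0519, and in NT+/+ mice *Mat2a* was at −0.22 (adjusted p = 0.0873) and was called lower with either replicate block, at adjusted p of 0.0383 and 0.0429, with sex as a covariate, at 0.0239, and without fasted replicate 5, at 0.0452.

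The 4 genes of hypusine, the spermidine-derived residue of the translation factor eIF5A, were called in neither genotype by edgeR or DESeq2, with 1 and 2 at an unadjusted p under 0.05, against 34.1% and 36.5% of all genes. *Eif5a* itself had a log2 fold change of −0.22 (adjusted p = 0.128) and −0.26 (adjusted p = 0.0861) by edgeR's quasi-likelihood test.

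Of 8 transport genes 7 were tested. *Slc22a3*, an organic cation transporter that carries polyamines, showed the largest change of the list. It was 1.83 ± 0.296 CPM in fed and 11.7 ± 3.18 CPM in fasted NT+/+ mice (SD, n = 5 each), and 2.02 ± 0.681 CPM (SD, n = 4) and 11.2 ± 3.11 CPM (SD, n = 5) in NT-/- mice. Fasted over fed, this was a log2 fold change of 2.66 (adjusted p = 4.53e-07 by the quasi-likelihood test of edgeR, standard error 0.25) and 2.47 (0.27, 2.48e-06). *Slc3a2*, the heavy chain of amino acid exchangers, was called higher in both genotypes, at 0.43 (adjusted p = 0.0263) and 0.54 (adjusted p = 0.00835), although the NT+/+ call was lost with only the compared groups in the fit, at adjusted p = 0.0626, and without any 1 of fed replicates 1, 2, and 5 and fasted replicates 3 and 4, at up to 0.0911. *Slc12a8* was called lower in NT-/- mice, at −0.49 (adjusted p = 0.0435), a call lost without any 1 of fed replicates 1 and 2 and fasted replicates 2 to 5, at up to 0.166. It was also lost with sex as a covariate, with the mouse of disagreeing labels as NT-/-, with only the compared groups, and without the 2 shallowest libraries, at adjusted p of 0.0547 to 0.219, while in NT+/+ mice *Slc12a8* (−0.33, adjusted p = 0.163) was called lower with the title number as a block, at −0.31 (adjusted p = 0.0410). *Atp13a2* and *Atp13a3*, which encode polyamine transporters, were at 0.06 and 0.20 in NT+/+ mice and −0.07 and 0.19 in NT-/- mice and were not called.

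*Aoc1* and *Maob*, the amine oxidases of the wider list, were called higher in both genotypes. Among all genes tested, 11.2% were called higher in NT+/+ and 12.5% in NT-/- mice. *Aoc1*, the diamine oxidase of the gut that degrades putrescine and histamine, went from 380 ± 36.9 to 524 ± 70.5 CPM in NT+/+ mice (SD, n = 5 each). Its log2 fold change was 0.46 (adjusted p = 0.00566) and 0.54 (adjusted p = 0.00239) by edgeR's quasi-likelihood test. *Maob*, a monoamine oxidase, had a log2 fold change of 0.99 (adjusted p = 0.000374) and 0.91 (adjusted p = 0.00113). Of the paralogs of the 10 genes, *Azin2* was called higher in NT+/+ mice, at 1.38 (adjusted p = 0.00470), from 0.378 to 1.00 CPM, and *Sat2* in NT-/- mice, at 1.59 (adjusted p = 0.0306), from 0.249 to 0.804 CPM. Both are at few counts, passed the filter on low counts with the fasted mice included, and were not tested where 10 counts were required in every mouse, so these values are given as a description. The call of *Sat2* was lost without any 1 of fed replicates 2 and 4 and fasted replicates 2, 3, and 5, at adjusted p of up to 0.0886, and at 0.0548 to 0.0637 with sex as a covariate, with the mouse of disagreeing labels as NT-/-, and without the 2 shallowest libraries.

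In the Myc network, which includes the factor long known to drive *Odc1*, *Myc* had a log2 fold change of 0.90 (adjusted p = 0.0539 by the quasi-likelihood test of edgeR, standard error 0.33) in NT+/+ and 0.46 (0.35, 0.363) in NT-/- mice. In NT+/+ mice *Myc* was called higher with the file-name number as a replicate block, at 0.75 (adjusted p = 0.0111), and with the title number, at 0.80 (adjusted p = 0.0353). It was also called higher there with no filter, with 10 counts required in every mouse, with upper quartile normalization, and with sex as a covariate, at adjusted p of 0.0420 to 0.0482. The same held without fed replicate 1 (0.0482) or fasted replicate 3 (0.00866), and the other alternatives did not call it. *Max*, the partner of Myc, was called higher in both genotypes, at 0.30 (adjusted p = 0.0367) and 0.58 (adjusted p = 0.000502), and the NT+/+ call was lost without any 1 of fed replicates 1, 2, 3, and 5 and fasted replicates 3 and 4, at up to 0.112, and at 0.0571 to 0.0705 with no filter on low counts, with the mouse of disagreeing labels as NT-/-, and with only the compared groups. *Mxi1*, which competes for Max, was called higher in NT-/- mice, at 0.51 (adjusted p = 0.0389), a call lost without any 1 of fed replicates 2 and 3 and fasted replicates 2, 3, and 5, at up to 0.131, and at 0.0501 to 0.0831 with no filter on low counts, with the file-name number as a block, with the mouse of disagreeing labels as NT-/-, and without the 2 shallowest libraries.

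**Figure D5:**
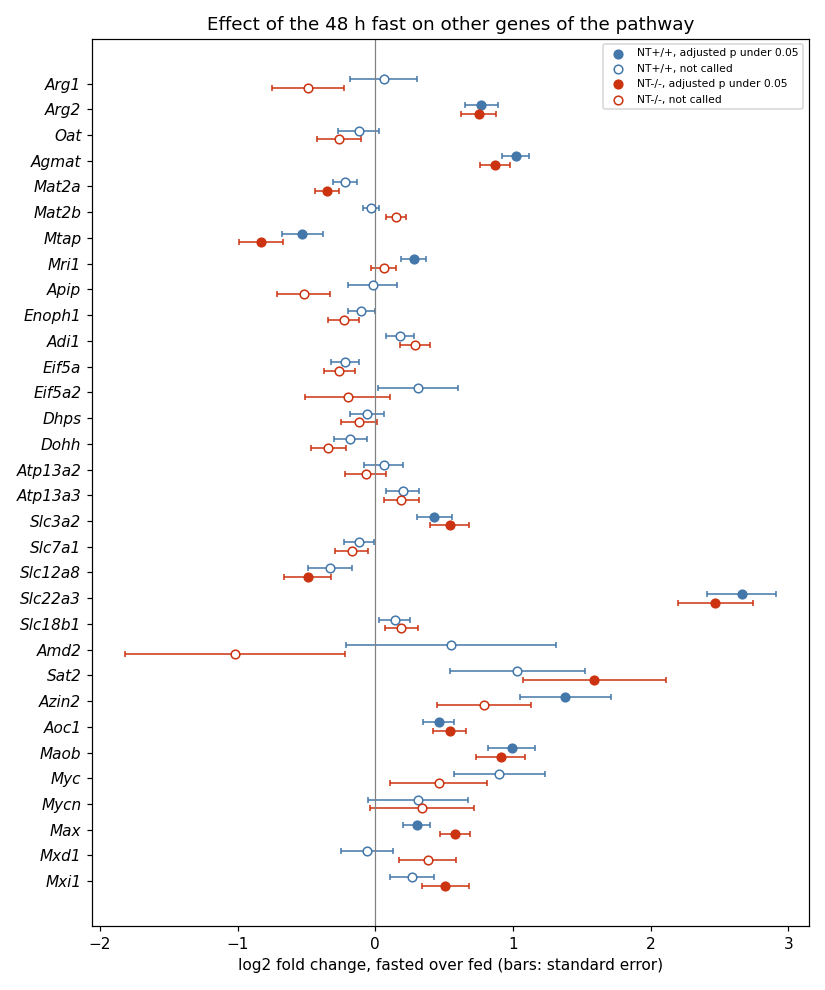
Log2 fold change, fasted over fed, of the 32 tested genes of the wider pathway in NT+/+ and NT-/- mice, with bars of 1 standard error and filled points at an adjusted p under 0.05. *Slc22a3* lies farthest to the right, at 2.66 and 2.47, and *Mtap* was called lower in both genotypes.

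Between the genotypes, 0 of the 32 other genes were called by edgeR in either diet, with 1 in fed and 6 in fasted mice at an unadjusted p under 0.05, where 1.67% and 9.14% of all genes were. DESeq2's Wald test called 0 in fed mice and 1 in fasted mice, *Arg2*, where it called 0.0168% and 0.548% of all genes. *Arg2* was 181 ± 13.5 CPM (SD, n = 4) in fed and 306 ± 36.2 CPM (SD, n = 5) in fasted NT-/- mice, against 133 ± 20.4 and 227 ± 37.3 CPM (SD, n = 5 each) in NT+/+ mice. Its log2 fold change between the genotypes was 0.45 (adjusted p = 1) in fed and 0.43 (adjusted p = 0.267) in fasted mice by edgeR's quasi-likelihood test, and DESeq2's adjusted p in fasted mice was 0.0392.

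Over the 19 mice, the genes whose log2 CPM ran most like that of *Odc1* were *Plxna1*, *Lyar*, and *3110082I17Rik* (Pearson's r, 0.856, 0.854, and 0.853). Those most like *Amd1* were *Orc6*, *Tra2b*, and *E2f6* (0.901, 0.901, and 0.868), and those most like *Sat1* were *Slc4a10*, *Slc31a1*, and *Gm43605* (0.754, 0.731, and 0.729). Among the 10 genes, *Odc1* and *Srm* deviated together from their group means (r, 0.680), as did *Oaz1* and *Smox* (0.675). The mice share diets and genotypes, and these values are descriptions.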

How the data were processed

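Crypt RNA of 19 mice was sequenced as single-end reads of ribosomal RNA-depleted libraries. Per the submitters' processing notes and the study's methods, reads were trimmed with Trimmomatic 0.39 and mapped to Ensembl transcripts of GRCm38 with RSEM. The RSEM version and strand setting are not given in the sources used here. The authors deposited RSEM's expected counts per gene, which are not normalized and divide reads that fit several genes. The authors also deposited TPM, which were used for levels per length, and RSEM's effective length in bases, another unit, used with CPM as a second measure of level.

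Expected counts were rounded and normalized by TMM in edgeR 4.0.16 (R 4.3.3), and the 17875 genes that passed filterByExpr were fitted together with 1 coefficient per group (15 residual degrees of freedom, common dispersion 0.0357). edgeR's quasi-likelihood test was used with Benjamini-Hochberg adjustment over all genes, and genes were called at an adjusted p under 0.05. The standard error is the size of the log2 fold change over the square root of F, and 95% intervals use 15 degrees of freedom. Group CPM are given as mean ± SD. The script was tested on simulated data. Precision is limited by 4 or 5 mice per group, and all 10 genes had counts in every mouse.

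The genes followed, the lists of the wider pathway, and the cell markers were chosen with earlier results of these data known. The genes named are the 10 genes, those of the pathway list that were called in a comparison or whose role bears on them, the 3 genes most correlated with *Odc1*, *Amd1*, and *Sat1* in log2 CPM, *Nts*, and near-identical or overlapping genes. Near-identical copies are genes of the GENCODE annotation with a match of at least 200 bases at 95% identity or more. Alternatives were no filter or a filter of 10 counts in every mouse, DESeq2 1.42.0, upper quartile normalization, a replicate block by either number, the mouse with disagreeing labels as NT-/-, a term for sex, only the compared groups, and each mouse left out. Chosen after seeing the data were counts of copies added and leaving out the 2 shallowest libraries.

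The titles and the deposited file names number the mice, and the labels do not say what the numbers mean. Labelled mice that share a file-name number were all of the same sex, so a block by that number also takes up sex. The part of sex in the correlations below was not tested. Deviations from group means correlated across genes in same-numbered pairs (mean r over 27 pairs, 0.184 for titles and 0.227 for file names). Pairs of other numbers had a mean r of −0.0457 and −0.0565. Deviations sum to 0 within each group, so this mean largely follows from that of the same-numbered pairs and is no separate contrast. For the file-name number every pair exceeded 0.1 in the 4 comparisons made, and 24 of the 27 pairs over all groups did. For the title number 2 of 4 pairs did in the fasting comparison of NT-/- mice.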

Additional observations from a re-analysis of the deposited data

Results flagged for a closer look

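Of 40 combinations of gene and group, 1 had a mouse far from the others of its group by Dixon's gap test, where chance marks about 1 in 20. It was *Oaz1* in fed NT-/- mice, where replicate 1 had 178 CPM and the other mice 152 to 157 CPM. This library was the deepest of all, with 35068711 counts. The mice numbered 1 in the other groups had 179, 178, and 177 CPM of *Oaz1*.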

How the results depend on the processing

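The fall of *Azin1* in both genotypes, the rise of *Oaz2* in NT+/+ mice, and the fall of *Smox* in NT-/- mice kept their direction and an adjusted p under 0.05 under every alternative run and without each mouse. The number of genes called higher after fasting in NT-/- mice, 1 (*Oaz2*), was 0 with no filter on low counts, 0 without the 2 shallowest libraries, and 0 to 1 with a mouse left out. The number called lower in NT-/- mice, 2, was 2 to 3 with a mouse left out. *Amd1* was called lower there with only the compared groups in the fit (adjusted p = 0.0214 by edgeR's quasi-likelihood test). With the title number as a replicate block 2 were called lower in NT+/+ and 4 in NT-/- mice, against 1 and 2 in the fit of all 19 mice without a block. That block added *Srm* in both genotypes and *Amd1* in NT-/- mice. The blocks changed no other call of the 10 genes except that of *Srm* in NT-/- mice by the file-name number. The sign turned for genes near 0. *Sms* in NT-/- mice was 0.06 with sex as a covariate, 0.02 without the shallow libraries, and −0.06 to 0.08 with a mouse left out. *Paox* in NT-/- mice was −0.04 with copies added. *Sat1* in NT-/- mice was −0.06 without the shallow libraries and −0.01 to 0.05 with a mouse left out. *Oaz1* in NT+/+ mice was −0.01 to 0.08 with a mouse left out. The cause of these changes was not tested. Over all genes tested, a replicate block raised the number called after fasting from 3862 to 5484 in NT+/+ and from 4499 to 5672 in NT-/- mice (file-name number), and DESeq2 called 98 genes between fasted genotypes where edgeR called 1.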

Other observations

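Some genes read differently on the TPM and the CPM scale. *Sms* in NT+/+ mice was 11.8 ± 0.924 TPM fed and 9.23 ± 0.743 TPM fasted (SD, n = 5 each), with ranges of 10.2 to 12.5 and 8.73 to 10.5 TPM, whereas its CPM were 22.6 ± 1.52 and 21.0 ± 2.98. *Paox* in NT+/+ mice was 6.02 ± 1.24 TPM fed and 5.72 ± 0.788 TPM fasted, whereas its CPM were 10.7 ± 1.43 and 12.7 ± 2.16. *Odc1* has several processed copies, and the most counted of its near-identical genes, *AW146154*, held 7.35% of the count of *Odc1*. With all copies added, *Odc1* had a log2 fold change of −0.11 in NT+/+ and −0.15 in NT-/- mice.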
